A study of Mus musculus with 6 samples.

Results

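Among the regions where UTX signal was lower in UTX-deficient CD8+ T cells, 543 combined a middling signal in wild-type (WT) cells with almost none in UTX-deficient cells. They were chosen by 2 values of the authors' deposited table. The first is a WT concentration (log2 of the mean normalized reads over the WT samples) of at least 5 and under 6.5, which is 32 to 90.5 normalized reads. The second is a concentration of 0 in UTX-deficient cells, the lowest value the table holds, which stands for a mean of 1 normalized read or less. These floor sites made up 20.4% (exact 95% interval 18.9 to 21.9) of the 2666 sites in the WT range and belonged to a table of 6739 sites of 401 bp. The other 2123 sites in the range, with a value above 0 in UTX-deficient cells, serve as comparison sites. Intervals on shares of sites treat the sites as independent, which they are not, so they describe counting error only.

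The study measured UTX binding by CUT&Tag, in which an antibody directs a transposase to cut and tag DNA near the bound protein, to find the genes that UTX binds directly. The cells were Ly108+CXCR6- CD8+ T cells, named progenitor cells in the labels, sorted from the pancreatic lymph nodes of NY8.3 mice on the NOD background. Both groups carried the NY8.3 transgenic T cell receptor, which recognises an islet antigen. There were 3 WT samples and 3 samples from UTXTCD.NY8.3 mice (genotype UTX_knock), in which UTX was deleted specifically in T cells. The driver of the deletion, the part of the gene removed, the age of the mice and whether samples came from separate animals are unknown from the sources used here. The authors' p-values therefore measure the spread between these samples, which may be technical. Of the CD8 T cell markers listed for this work, 8 of 10 had a site in the authors' deposited table. Most of these, such as Cd3e and Thy1, are shared with other T cells, so the count does not single out CD8 cells. For CD4 and regulatory T cell markers it was 5 of 15, and for natural killer and innate lymphoid cell markers 4 of 14. Housekeeping genes had 27 of 39, B cell markers 1 of 13, and developmental regulators 0 of 60. Myeloid and dendritic cell markers had 2 of 20, and pancreatic, stromal and endothelial markers 1 of 20. Among all protein-coding genes, 4807 of 21896 (22%) had a site.

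UTX, the product of the X-linked gene Kdm6a, removes methyl groups from lysine 27 of histone H3, a mark of Polycomb repression. It works within complexes that also contain the H3K4 methyltransferases KMT2C or KMT2D, and it is known at promoters and enhancers of active or poised genes. In T cells, UTX is known as a regulator of differentiation.

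Many floor sites lay at gene starts, and 71 of them held the whole promoter window of their gene, from 250 bases before to 50 after the start. Of those 71, 7 belonged to listed genes. Their bases before the start are printed here to show what kind of DNA carried these sites. The sequences are RefSeq's on GRCm38.p6, the assembly of mm10, written 5′ to 3′ on the strand of the gene. Capitals mark matches on either strand to GGGCGG (bound by KLF and SP factors), CCAAT (NFY) and CCGGAAG (ETS factors). TGACGTCA (the cyclic AMP response element) and GCGCATGC (NRF1) were also searched and had no match in these stretches.
Irf1, chr11:53769764-53770013, plus strand: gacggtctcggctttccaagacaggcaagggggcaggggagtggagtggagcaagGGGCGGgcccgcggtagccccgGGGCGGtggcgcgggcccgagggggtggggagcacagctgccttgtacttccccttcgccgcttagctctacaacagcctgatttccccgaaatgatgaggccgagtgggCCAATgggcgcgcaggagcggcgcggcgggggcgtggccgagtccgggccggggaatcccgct
Ddit4, chr10:59951771-59952020, minus strand: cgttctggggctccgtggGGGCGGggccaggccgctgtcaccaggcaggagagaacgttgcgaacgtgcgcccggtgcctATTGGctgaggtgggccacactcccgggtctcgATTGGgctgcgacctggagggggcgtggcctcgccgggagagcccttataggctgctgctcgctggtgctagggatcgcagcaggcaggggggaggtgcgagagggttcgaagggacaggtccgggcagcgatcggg
Tgfbr1, chr4:47352972-47353221, plus strand: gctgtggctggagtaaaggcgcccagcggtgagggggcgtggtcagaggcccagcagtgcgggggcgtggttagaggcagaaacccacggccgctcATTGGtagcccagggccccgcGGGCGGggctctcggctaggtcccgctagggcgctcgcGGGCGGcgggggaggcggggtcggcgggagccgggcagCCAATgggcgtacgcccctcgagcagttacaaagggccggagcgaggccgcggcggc
Pfn1, chr11:70654651-70654900, minus strand: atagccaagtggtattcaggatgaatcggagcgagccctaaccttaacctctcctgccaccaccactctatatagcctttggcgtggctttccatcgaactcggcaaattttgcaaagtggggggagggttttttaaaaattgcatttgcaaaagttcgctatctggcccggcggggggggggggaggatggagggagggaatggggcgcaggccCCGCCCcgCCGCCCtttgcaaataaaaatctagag
Ppia, chr11:6415617-6415866, plus strand: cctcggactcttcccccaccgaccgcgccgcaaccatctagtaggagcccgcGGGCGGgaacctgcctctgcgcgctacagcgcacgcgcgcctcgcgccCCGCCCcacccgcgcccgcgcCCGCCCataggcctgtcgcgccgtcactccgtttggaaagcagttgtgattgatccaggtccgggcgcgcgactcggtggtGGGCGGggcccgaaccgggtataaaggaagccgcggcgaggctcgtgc
Mafk, chr5:139791286-139791535, plus strand: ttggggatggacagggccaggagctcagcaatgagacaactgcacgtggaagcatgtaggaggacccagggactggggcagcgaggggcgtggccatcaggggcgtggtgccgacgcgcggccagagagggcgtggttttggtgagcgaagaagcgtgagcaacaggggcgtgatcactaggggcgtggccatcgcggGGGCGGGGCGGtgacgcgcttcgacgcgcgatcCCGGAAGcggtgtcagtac
Zbtb1, chr12:76370270-76370519, plus strand: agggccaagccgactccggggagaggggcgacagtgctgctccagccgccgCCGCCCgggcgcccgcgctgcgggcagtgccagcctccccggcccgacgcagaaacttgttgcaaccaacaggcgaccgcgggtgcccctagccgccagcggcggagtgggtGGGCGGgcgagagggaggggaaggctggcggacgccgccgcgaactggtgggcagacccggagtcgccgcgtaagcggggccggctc
Irf1 encodes an interferon-response transcription factor, and Ddit4 an inhibitor of mTOR complex 1. Tgfbr1 encodes a receptor for TGF-beta, Pfn1 the actin-binding protein profilin, and Ppia cyclophilin A. Mafk encodes a small Maf transcription factor, and Zbtb1 a zinc-finger factor needed for lymphocyte development. Each stretch held at least 1 GGGCGG, and Ppia held 4. CCAAT was present in those of Irf1, Ddit4 and Tgfbr1, and CCGGAAG in that of Mafk. Over the whole window, GC content ran from 57% at Pfn1 to 75% at Zbtb1. A match describes the letters in the window and does not show that a factor binds there.

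The floor in UTX-deficient cells was a matter of a few reads, with UTX-deficient library 2 contributing most of them. Whole reads per library could be worked back from the deposited group values at all 2666 sites in the range. Libraries are numbered by depth, since the group values carry no replicate number. With the mean depth of all libraries set to 1, the WT libraries had depths of 1.28, 0.916 and 0.792 and the UTX-deficient ones 1.93, 1.07 and 0.00577. One read of the last, near-empty library is worth 173.2 normalized reads, so its reads had to be 0 wherever the group lay at the floor. Over the 543 floor sites together, 28601, 23281 and 16440 reads fell in the WT libraries against 612, 855 and 0 in the UTX-deficient ones. Per site the median was 50, 41 and 29 reads in the WT libraries against 1 and 2 in the 2 deeper UTX-deficient libraries.

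After scaling for depth, floor sites averaged 41.2, 46.8 and 38.2 normalized reads in the WT libraries against 0.583, 1.47 and 0 in the UTX-deficient ones. That is 42.1 ± 4.36 (SD, n = 3) against 0.683 ± 0.739 (SD, n = 3). At comparison sites the same libraries gave 50.6, 56.2 and 47.1 against 1.45, 5.18 and 0, or 51.3 ± 4.56 against 2.21 ± 2.67 (SD, n = 3). UTX-deficient library 2 was thus the highest of its group at both kinds of site. The 0 of the near-empty library counts in these UTX-deficient means and SDs, though at a depth of 0.00577 it says little about the level. The level in UTX-deficient cells therefore rests on the 2 deeper libraries, with 0.583 and 1.47 at floor sites and 1.45 and 5.18 at comparison sites. WT libraries varied alike at floor and comparison sites, with a median coefficient of variation over 3 libraries of 16.6% and 14.8%. These values chose the sites, so they are given with no test. Each value averages over the sorted cells, so fewer cells bound at a site and less UTX bound per cell cannot be told apart.

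Which sites counted as floor sites depended on which UTX-deficient libraries entered the mean. Without library 2, 2046 of the 2666 sites in the range would have lain at the floor, without library 1 580, and without the near-empty library 261. The counts per list and per gene given here hold for the set as deposited, with all 3 libraries.

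**Figure D1:**
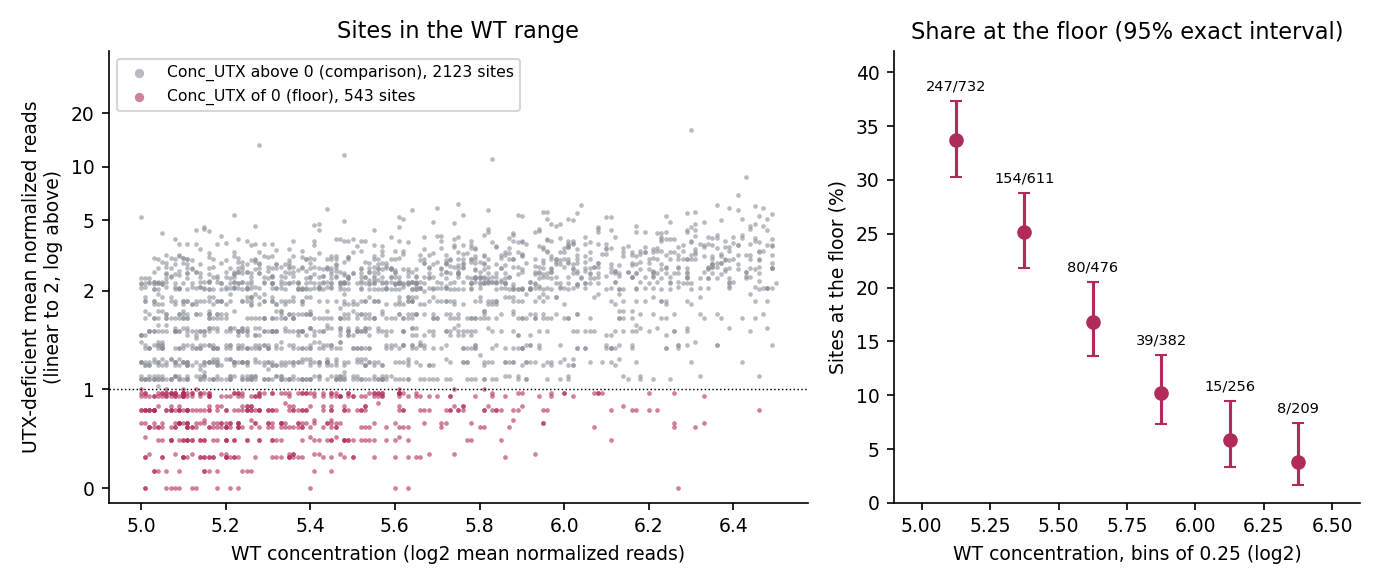
Left, each of the 2666 sites in the range by WT concentration (log2 mean normalized reads) and mean normalized reads in UTX-deficient cells (linear to 2, log above), with the 543 floor sites in red under the dotted line at 1. Right, the share of sites at the floor in bins of 0.25 with exact 95% intervals, falling from 33.7% to 3.83%, with the numbers of sites above each point.

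At 15 floor sites (2.76%) no read at all was found in UTX-deficient cells. Another 58 sites had 1 read in total, 128 had 2, 224 (41.3%) had 3, 109 had 4 and 9 had 5. Reads came from both deeper UTX-deficient libraries at 321 sites, only from library 2 at 168 and only from library 1 at 39. WT totals at these sites ran from 93 to 264 reads, with a median of 117. At comparison sites the UTX-deficient total ran from 4 to 69 reads, with a median of 8, and the WT total from 90 to 276, with a median of 142. The totals of the 2 sets therefore met at 4 and 5 reads. Which side such a site fell on depended on which library held the reads, since 1 read of library 2 counts for more than 1 of library 1.

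The share of sites at the floor fell as WT signal rose. It was 29.9% (401 of 1343) at a WT concentration of 5 to under 5.5, 13.9% (119 of 858) from 5.5 to under 6 and 4.95% (23 of 465) from 6 to under 6.5. Floor sites were accordingly weaker in WT, with a median WT concentration of 5.28 against 5.57 at comparison sites. At the edges of the rule, Cry2 (WT concentration 5.0008) and a Ccnd3 site (5.0018) lay just inside, while Ppm1d (4.9999) and Mospd3 (4.9991) lay just outside. At the top, Pigv (6.3316) and Tle5 (6.4629) were the last inside, and Zfp36l1 (6.7399) and Skil (6.8084) the next floor-level sites outside. For the UTX-deficient value, Themis and Grap2 were just inside with a summed 2.9997 normalized reads, and 1810030O07Rik (3.1012) and Got1 (3.3136) just outside.

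In the authors' deposited table, all 543 floor sites were lower in UTX-deficient cells at an FDR under 0.05. That threshold was passed in this direction by 6718 of the 8293 sites inferred to have been tested (81.0%). All 543 also passed an FDR of 0.01, where the background was 70.4%. The largest FDR among lower sites with recovered reads was 0.05, so a place in the table already fixed the passing of 0.05. Sites tested but absent from the table, 1554 by inference, are in neither the floor nor the comparison set. The rule also used this contrast, so nothing is read from these counts. Each WT library lay above each UTX-deficient library at all 543 floor sites and at all 2123 comparison sites. The same held at 6715 of the 6716 deposited sites with recovered reads (100%). Reads were recovered only where the near-empty library held 0, so its part in this order was fixed in advance. The log2 fold in the authors' deposited table had a median of -4.56 at floor sites (range -6.36 to -3.67) and of -3.83 at comparison sites. The FDR in the authors' deposited table had a median of 7.63e-10 at floor sites, a larger value than the 2.62e-11 of comparison sites. By total reads in UTX-deficient cells, the median FDR of floor sites in the authors' deposited table was 2.81e-08 at 0 reads, 1.55e-10 at 4 and 4.14e-09 at 5, where there were 9 sites. The median log2 fold in the authors' deposited table at those totals was -5.23, -4.30 and -4.06, and the median WT concentration was 5.13, 5.36 and 5.34.

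The site with the highest WT signal was assigned to Tle5, a gene of the Groucho family of transcriptional regulators (chr10:81561012-81561412, within the gene). Reads were 107, 101 and 56 in WT against 1, 2 and 0 in UTX-deficient cells. Per unit of depth that is 88.8 times more in WT, with a counting interval of 30 to 433 that covers counting error only. At Pigv, which encodes a mannosyltransferase of GPI-anchor synthesis, the middle of the site lay 126 bp inside the gene from its start. It held 87, 85 and 64 reads in WT against 0, 3 and 0. A site 536 bp from the start of Nr1d2, the gene of the clock repressor REV-ERB beta, held 84, 79 and 62 reads in WT against 2, 1 and 0. The rule chose these sites for such values, so the distance between the groups is no result.

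Dusp2, an activation-induced phosphatase of MAP kinases, carried a floor site 1869 bp upstream of its start (chr2:127334090-127334490). Its reads were 112, 84 and 49 in WT against 2, 1 and 0 in UTX-deficient cells. It was the strongest of the 4 sites of Dusp2 in WT. The other 3 were comparison sites, the nearest of them 935 bp away, with 59, 52 and 25 reads in WT against 1, 6 and 0. Upstream of Nab2, a corepressor of EGR transcription factors, a floor site at 1606 bp from the start held 82, 75 and 49 reads in WT against 1, 1 and 0. Map4k2, a kinase of the JNK pathway, had its floor site at the start itself, with 80, 62 and 56 reads in WT against 0, 2 and 0. The smallest FDR among floor sites in the authors' deposited table, 1.03e-16, belonged to Gstt2, a glutathione transferase gene. Its site held 94, 60 and 64 reads in WT against 2, 2 and 0.

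Of the 15 sites without a read in UTX-deficient cells, the strongest was 33236 bp from Rps6ka1, a ribosomal S6 kinase gene (chr4:133813854-133814254), with 82, 83 and 61 WT reads. Against the limit of 3 counts that 0 reads allow over the group, that is at least 76-fold more per unit of depth in WT. Such limits take the WT reads as exact, so they leave out part of the counting error that the interval at Tle5 covers. Msh5, which acts in meiotic recombination, had 57, 49 and 40 WT reads at a site 217 bp upstream of its start, at least 49.1-fold more. Srsf1, a splicing factor gene, had 40, 36 and 32 WT reads at a site 153 bp inside its start, at least 36.3-fold more. Gnai2, which encodes a G protein alpha subunit used by chemokine receptors, had 38, 29 and 34 WT reads, at least 34-fold more. Sites of Impdh2, Odc1 and Adam10 at or near gene starts and a site of Bicdl1 within the gene were also among the 15. Impdh2 and Odc1 encode rate-limiting enzymes of guanine nucleotide and polyamine synthesis.

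The 543 floor sites were assigned to 525 genes, of which 509 had 1 floor site, 14 had 2 and 2 had 3. Comparison sites belonged to 1847 genes, and 97 genes had sites of both kinds. Of the 2275 genes with a site in the range, 23.1% had a floor site, and the lists that follow are read beside that share. The lists describe only how many genes were touched. They were not tested, and genes with more sites in the range had more chances to hold a floor site.

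Genes of RNA processing and decay had floor sites at 10 of 24 members in the range (41.7%). They were Ago2, Cnot1, Cnot6l, Dgcr8, Hnrnpc, Hnrnpd, Hnrnpf, Srsf1, Zc3h12a and Zfp36l1. Zc3h12a encodes regnase-1, an endonuclease that degrades immune transcripts, and its site 2875 bp inside the start held 62, 64 and 32 reads in WT against 1, 2 and 0. Zfp36l1 encodes a decay factor that binds AU-rich elements, and its site 2693 bp upstream held 60, 49 and 36 against 1, 1 and 0. Cnot1, the scaffold of the CCR4-NOT deadenylase, had 58, 50 and 33 reads against 2, 2 and 0 at 493 bp from an end of the gene. Adhesion, homing and cytoskeleton genes had 9 of 26 (34.6%), among them Ccr7, Cxcr5, Itgae, Fermt3, Gnai2 and Wasf2.

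Cytokine receptor and JAK-STAT genes, in a list that also took in TGF-beta signalling, had floor sites at 6 of 19 members in the range (31.6%). They were Ifnar1, Il6st and Jak1, and for TGF-beta signalling Ski, Smad3 and Tgfbr1. At Il6st, the gp130 signalling chain shared by the IL-6 family, the site lay 36328 bp upstream of the start and held 67, 62 and 33 reads in WT against 1, 2 and 0. The Tgfbr1 site, centred 118 bp upstream of the start on the sequence printed above, held 47, 51 and 24 against 2, 2 and 0. At Ifnar1, an interferon receptor chain, the counts were 48, 38 and 28 against 3, 1 and 0. In 5 of these 6 genes a comparison site was present as well.

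For H3K27 and H3K4 methylation, 5 of 16 genes in the range (31.2%) had a floor site, among them genes of Polycomb and of H3K4-methylating complexes. Eed is a core subunit of Polycomb repressive complex PRC2, Ring1 belongs to PRC1, and Kmt2b and Kmt2c encode H3K4 methyltransferases. Kmt2c, whose product is a partner of UTX, had 74, 47 and 34 reads in WT against 0, 1 and 0 at a site centred 534 bp upstream of its start. The Ring1 site held 47, 50 and 35 reads against 0, 3 and 0, and the Eed site 36, 45 and 26 against 0, 1 and 0. Among genes of acetylation and remodelling, 4 of 18 (22.2%) had a floor site. At Ep300, the gene of the acetyltransferase p300, 76, 51 and 40 reads in WT stood against 0, 3 and 0 at 971 bp upstream of the start.

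Of the progenitor and quiescence factors, 4 of 21 in the range (19%) had a floor site, Ccr7, Cxcr5, Klf13 and Lef1, and each of them also had a comparison site. At Ccr7, the chemokine receptor that keeps T cells in lymph nodes, the floor site lay 7524 bp from the gene and held 49, 40 and 46 reads in WT against 2, 2 and 0. Klf13 had 55, 38 and 24 against 3, 1 and 0. The site assigned to Lef1, a relative of TCF1, was 162918 bp upstream of its start and held 50, 31 and 22 against 2, 2 and 0. T cell receptor signalling genes had floor sites at 4 of 19 (21.1%), Csk, Grap2, Grb2 and Themis. At Themis, needed for thymocyte selection, the site 123 bp inside the start held 41, 38 and 23 reads against 4, 1 and 0, and at the adaptor gene Grap2 56, 57 and 32 against 4, 1 and 0.

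Effector and cytotoxic genes had a floor site at 1 of 11 members in the range (9.09%), Tnf, with 69, 44 and 52 reads in WT against 0, 2 and 0. Inhibitory receptor and exhaustion genes had 1 of 10 (10%), Tigit, at 34078 bp from the gene, with 46, 36 and 26 against 2, 1 and 0. Of the immediate-early, AP-1 and NF-kB genes 4 of 21 (19%) had one. Nfkb1, the gene of the p105 and p50 subunits, held 90, 71 and 43 reads within the gene against 2, 2 and 0. Rel, the c-Rel gene, held 70, 44 and 38 against 2, 2 and 0 at 230 bp upstream of its start. PI3K and mTOR genes had 4 of 18 (22.2%), and the Ddit4 site printed above held 72, 56 and 40 against 1, 2 and 0. Fnip1, a folliculin partner in nutrient sensing, held 64, 50 and 48 against 1, 1 and 0.

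Among cell cycle genes, 4 of 13 in the range (30.8%) had a floor site, Ccnd3, Cdk12, Cdk13 and E2f1. The transcriptional kinase genes Cdk12 and Cdk13 carried theirs near the start, with 57, 41 and 28 reads in WT against 1, 2 and 0 at Cdk12 and 60, 45 and 30 against 1, 1 and 0 at Cdk13. Housekeeping genes had 5 of 21 (23.8%), among them Actb, Hsp90aa1, Ppia and Tubb5. BCL2-family and cell death genes had 2 of 10 (20%), the p53 target Bbc3 and the kinase gene Ripk1. Lineage factors had 3 of 16 (18.8%), class I and interferon genes 2 of 6, ribosomal protein genes 2 of 4 and respiratory genes 1 of 5. Of the ribosomal protein sites, 1 lay 205244 bp from its assigned gene. The Irf1 site printed above held 74, 57 and 41 reads in WT against 1, 2 and 0.

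Markers of other cell types were also among the assigned genes. Of 15 markers of CD4 and regulatory T cells, 5 had a site in the range, and 3 of these, Cd4, Ikzf4 and Tnfrsf18, had a floor site. The Cd4 site (chr6:124885903-124886303, within the gene) held 97, 85 and 48 reads in WT against 0, 2 and 0. Among 20 pancreatic, stromal and endothelial markers only Pecam1, an adhesion molecule gene that leukocytes also express, had one, with 45, 36 and 30 reads in WT against 2, 1 and 0. Markers of B cells and of natural killer and innate lymphoid cells had 1 and 2 members with a site in the range, those of myeloid and dendritic cells had 0, and none of these had a floor site. With so few members in the range, little can be read from that. Of the CD8 T cell markers, 4 had a site in the range and 0 of these had a floor site. Most of that list is shared with other T cells, so it makes no contrast with the CD4 markers. CUT&Tag shows where UTX signal lies and not whether a gene is expressed, and the part of other cells in these sites was not tested.

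**Figure D2:**
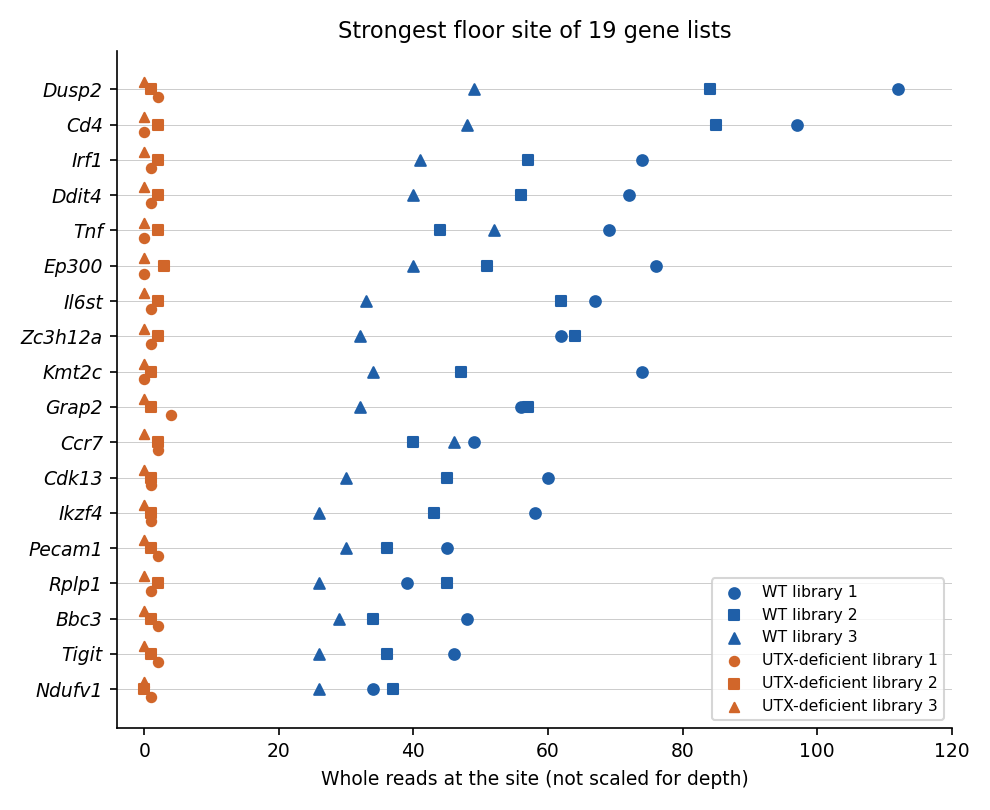
Whole reads in each of the 3 WT (blue) and 3 UTX-deficient (orange) libraries, not scaled for depth, at the floor site with the highest WT signal in 19 of the 20 gene lists that had one (18 sites, since Ccr7 stands for 2 lists, and 1 list is left out because its site is not reported here). From Dusp2 (112, 84 and 49 reads in WT) at the top to Ndufv1 (34, 37 and 26) at the bottom, every WT library holds at least 26 reads, and no UTX-deficient library holds more than 4.

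Several genes carried more than 1 floor site. Arid1a, a subunit of the BAF remodelling complex, and Kif21b, a kinesin gene, had 3 each and no other site. The Arid1a sites held 46, 35 and 31 reads in WT against 1, 0 and 0 at 152 bp upstream of a start, 38, 44 and 20 against 0, 1 and 0, and 46, 27 and 33 against 0, 3 and 0. At Kif21b the sites lay within the gene and held 47, 49 and 35 reads against 1, 1 and 0, 48, 34 and 37 against 0, 2 and 0, and 52, 24 and 27 against 2, 2 and 0. At these 2 genes all deposited sites were thus floor sites. Ago2, the Argonaute slicer gene, had 2 floor sites and 3 comparison sites among 7. Its floor sites averaged 0.483 and 0.828 normalized reads in UTX-deficient cells, and its comparison sites 1.93 to 2.21. The rule divides sites at a mean of 1, so this gap was fixed by the choice of sites.

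Other genes had floor sites beside both stronger and weaker sites. Ccnd3, the cyclin D3 gene, had comparison sites 117 bp upstream of its start (87, 68 and 46 reads in WT against 2, 6 and 0) and at 3 places within the gene. The weakest of these, with 52, 27 and 27 reads in WT, kept 0, 6 and 0. Its floor sites were farther along, at 26573 bp from the start (49, 47 and 28 against 0, 1 and 0) and 1392 bp beyond an end of the gene (34, 29 and 30 against 1, 2 and 0). At Irf2bpl, the floor site held 74, 60 and 40 reads in WT against 0, 1 and 0, above comparison sites with 54, 40 and 27 against 1, 4 and 0 and with 68, 46 and 22 against 3, 3 and 0. It was below others with 81, 74 and 50 against 2, 8 and 0 and, 2774 bp away, with 65, 72 and 48 against 5, 10 and 0. At Klf13 the site 163 bp upstream of the start was far stronger than the floor site, with 287, 243 and 176 reads in WT, and it kept 6, 21 and 0 in UTX-deficient cells. Bicdl1 had its floor site (49, 39 and 22 against 0, 0 and 0) 4869 bp from a comparison site with 53, 41 and 27 against 2, 5 and 0. WT reads at those 2 neighbours were close, while UTX-deficient reads were 7 at one and 0 at the other. Those UTX-deficient reads placed the 2 sites in different sets, so the difference between them is no result.

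**Figure D3:**
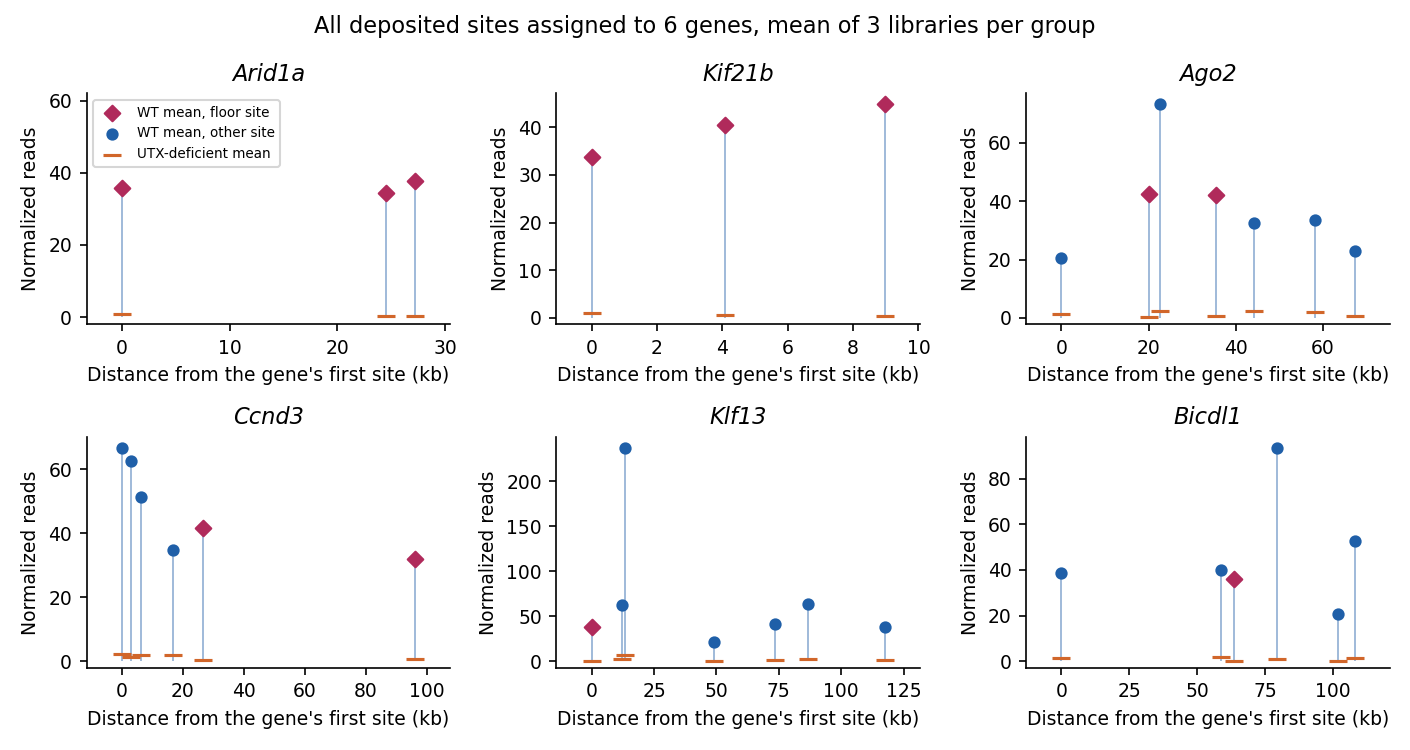
All deposited sites assigned to Arid1a, Kif21b, Ago2, Ccnd3, Klf13 and Bicdl1, by distance in kb from the gene's first site, with the mean normalized reads of 3 WT libraries (diamonds for floor sites, circles for others) and of 3 UTX-deficient libraries (orange dashes). Each panel has its own scale, and all sites of Arid1a and Kif21b are floor sites while the other 4 genes mix both kinds.

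Near gene ends, floor and comparison sites had close shares, while at a distance of 10 kb the gap was wider, with overlapping intervals. Of the 539 that could be placed against their assigned gene, 274 (50.8%, exact 95% interval 46.5 to 55.1) lay within 1 kb of an end of it. For comparison sites the share was 52% (1092 of 2100) and for all lower sites 53.2%. The difference of -1.17 percentage points had an interval of -5.98 to 3.65, which includes 0 and leaves room for differences of that size. It was 6.97 points without UTX-deficient library 2, with 2046 sites at the floor, and 3.63 without the near-empty library. Floor sites overlapped their gene in 75.9% of cases and comparison sites in 75.4%. Of floor sites whose gene had a known start, 250 of 439 (56.9%) were centred within 500 bp of it, against 56.4% of comparison sites. Among those close sites, 71.2% of floor sites and 74.8% of comparison sites lay on the upstream side, at a median of -84 and -96 bp. More than 10 kb from a gene end lay 22.1% of floor sites (interval 18.6 to 25.8) and 27.4% of comparison sites (25.5 to 29.3), a gap of 5.30 points. Within 2 kb the difference was 0.22 points. The gap at 10 kb was not split by WT concentration or by library left out.

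**Figure D4:**
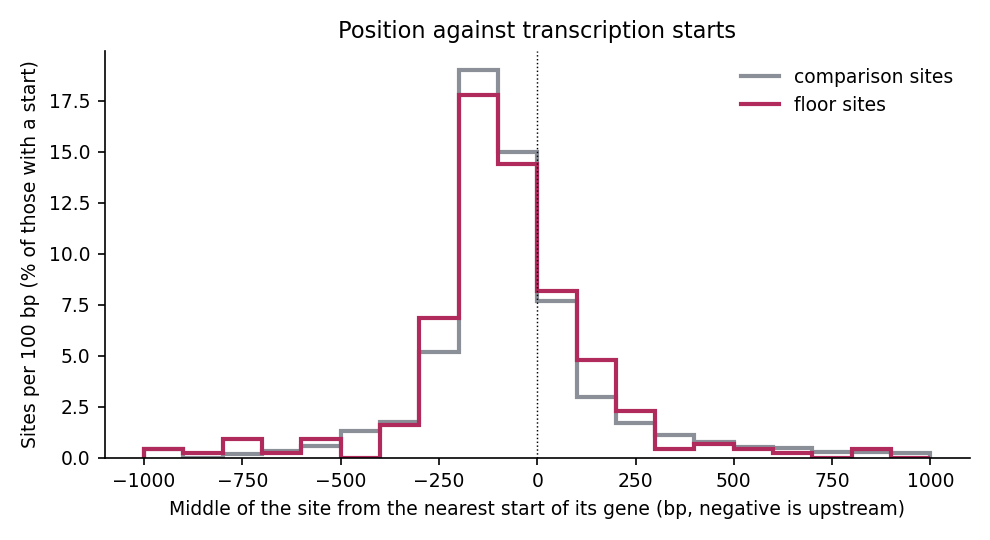
Middle of the site relative to the nearest start of its assigned gene in bp (negative is upstream), as percent of sites per 100 bp for 439 floor sites (red) and the comparison sites (grey) with a known start. Both sets peak between 200 and 100 bp upstream, with 17.8% and 19% of sites.

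Promoters under floor sites were rich in GC and CpG, as were those under comparison sites. Floor sites overlapped 264 promoter windows of 300 bases with a median GC content of 65.5% and a median CpG observed to expected ratio of 0.844. Under comparison sites (975 windows) the medians were 64.3% and 0.81, and over all 32851 windows of the table they were 52.7% and 0.384. GGGCGG was present in 80.7% of floor windows, 80.8% of comparison windows and 35.7% of all windows. For CCGGAAG the shares were 20.5%, 17.8% and 8.86%, and for TGACGTCA 5.3%, 4.41% and 1.79%. CCAAT was present in 41.3% of floor windows (interval 35.3 to 47.5), 49.9% of comparison windows (46.8 to 53.1) and 37.4% of all windows, the widest gap between floor and comparison windows among the 18 motifs searched. The longer NFY motif GGCCAATC had close shares, 4.55% of floor windows (2.37 to 7.81) and 5.13% of comparison windows (3.83 to 6.71). TGANTCA, the AP-1 motif, was in 4.17% of floor windows, 4% of comparison windows and 7.81% of all windows. All motifs were sought on both strands, and in floor windows GGGCGG overlapped CCGGAAG in 1 and CCAAT in 2.

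The share of sites that stood alone on the chromosome was lower among floor sites. The next deposited site was more than 250 kb away for 22 of 543 floor sites (4.05%, interval 2.56 to 6.07) and for 199 of 2123 comparison sites (9.37%, 8.17 to 10.7). Within the WT range of 5 to under 5.5, which holds most floor sites, the shares were 4.49% and 11.4%, and from 5.5 to under 6 they were 3.36% and 8.25%. From 6 to under 6.5 they were 0 of 23 (interval up to 14.8%) and 7.01%. The sites were not tested as replicates, and the direction was the same without the near-empty library (4.21% and 8.73%), without UTX-deficient library 1 (5.69% and 9.01%) and without UTX-deficient library 2 (6.74% and 13.4%). Median spacing to the next site was 22629 bp for floor sites and 26402 bp for comparison sites. Sites within 1.5 kb of another made up 2.76% and 3.44%. Sites in the range that stood alone had mean normalized reads of 1.7, 4.82 and 0 in the UTX-deficient libraries, against 1.24, 4.38 and 0 at the others.

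The share of sites at the floor ran from 6.25% to 29.5% over the chromosomes, with wide intervals. Chromosome 11 held 81 floor sites, 14.9% of all (interval 12 to 18.2), but 194 or 9.14% of comparison sites (7.95 to 10.4). By WT concentration, the shares on chromosome 11 were 13.5% and 8.49% from 5 to under 5.5 and 21.8% and 8.93% from 5.5 to under 6. From 6 to under 6.5 the order was the other way, with 1 of 23 floor sites (4.35%) and 10.9% of comparison sites. Without the near-empty library the shares on chromosome 11 were 13.8% (9.85 to 18.6) and 9.94% (8.77 to 11.2). Without UTX-deficient library 1 they were 13.1% (10.5 to 16.1) and 9.54% (8.31 to 10.9), so in both cases the intervals overlapped. Without UTX-deficient library 2 they were 11.5% (10.1 to 12.9) and 6.45% (4.65 to 8.68). In all, 29.5% of the chromosome 11 sites in the range were at the floor, followed by 26% on chromosome 17 and 24.2% on chromosome 5. On chromosome X, 2 of 32 sites were at the floor (6.25%, interval 0.766 to 20.8), and on chromosome 12 the share was 12.6%. Irf1, Pfn1, Ppia, Ccr7, Rel and Cdk12 were among the genes on chromosome 11. Over 20 chromosomes, the share at the floor rose with the number of protein-coding genes per Mb (Pearson's r 0.73, Spearman's rho 0.87, and r 0.65 without chromosomes 11 and X). These points come from the same 6 libraries and are a description. The relation was looser under other makes of the UTX-deficient group, with r 0.54 without the near-empty library, 0.55 without library 1 and 0.47 without library 2. Spearman's rho was 0.52, 0.49 and 0.64 in the same order.

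UTX-deficient library 1 averaged 3.28 normalized reads at the 32 chromosome X sites in the range, against 1.28 over all sites in the range. Library 2 gave 4.78 and 4.42. On chromosome 11 the values were 0.985 and 3.95.

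**Figure D5:**
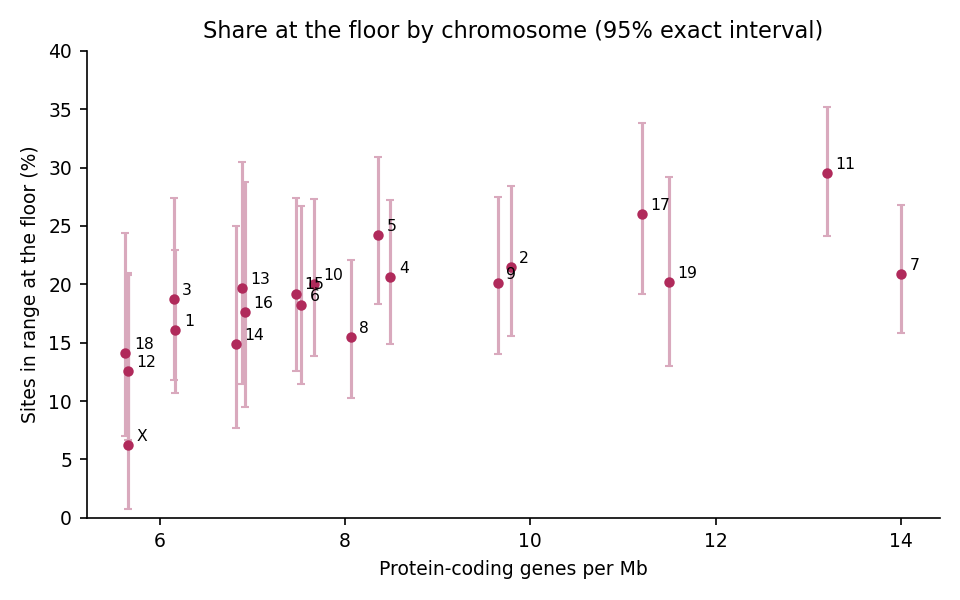
Percent of the sites in the WT range that lay at the floor, by chromosome, against protein-coding genes per Mb, with exact 95% intervals. Chromosome 11 is highest at 29.5% and X lowest at 6.25%, and the intervals of most chromosomes overlap.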

How the data were processed

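The 6 CUT&Tag samples (3 WT, 3 UTX-deficient) enter through 1 file, the authors' own comparison of the groups, whose layout is that of a DiffBind report per the file headers. The submitters' processing notes list cutadapt, FastQC, SAMtools, Bowtie2, Picard, DiffBind and MACS2, and mm10 as the build, without roles or versions. No source used here says if peaks came from single or pooled samples. The deposited concentrations and fold are log2 values (concentrations are of normalized reads averaged over a group and never below 0, and a negative fold means WT is higher). The p-value and FDR are the authors' deposited values, and no test of sites was run here. IgG control libraries were not used here.

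From FDR, p-value and rank, 8293 sites were inferred to have been tested, 1554 of them not in the table. Each library's whole reads were solved from the antilogs of the concentrations, as sums over 3 libraries of whole reads times the worth of 1 read. All 2666 sites in the range had exactly 1 solution, and 23 sites elsewhere in the table did not. The recovery was tried on simulated reads with depths near those recovered, including a near-empty library with 0 reads at lower sites. Depths averaging 1 and that near-empty library were thus taken as given there and were not tested. Without molecular identifiers, PCR copies cannot be told from separate molecules, so ratios and their exact 95% intervals (Clopper-Pearson, scipy 1.17.1) cover counting error only. A count of 0 was set to a limit of 3 counts over the group for ratios, with the WT count taken as exact, which gives no such interval.

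Sites were placed against their assigned genes with RefSeq genes and promoter windows of GRCm38.p6. Named sites were the 8 with the highest WT concentration, the 8 with the most negative fold, the 5 with the smallest FDR, up to 3 per gene list, the genes with 2 or more floor sites, 6 genes with both kinds of site, and the sites nearest each threshold. Sites without a read in UTX-deficient cells beyond these were named after their values were seen. The members, the 25 gene lists and the 18 motifs were chosen with earlier results of these data known. Alternatives covered the libraries in the group means, the WT range, the FDR threshold, the distance to genes and the annotation. Leaving out single libraries for spacing and chromosomes, and the distance to a start, were chosen after seeing the data. A few listed genes are not reported here.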

Additional observations from a re-analysis of the deposited data

How the results depend on the processing

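The number of floor sites depended on how the floor was drawn. It was 543 as deposited, 15 where no read in any UTX-deficient library was asked for, 261 without the near-empty library and 142 for a WT concentration of 5.5 to under 6.5. Leaving out each of the other 5 libraries in turn gave 478 to 2046 sites, and the highest value came without UTX-deficient library 2. At an FDR under 0.01 the number was still 543. The share of floor sites near a gene end, 50.8% within 1 kb, was 46.4% within 500 bp, 57.9% within 2 kb, 77.9% within 10 kb, 59.3% for the nearest gene end of any gene and 56.9% for 500 bp of a start. The difference from comparison sites, -1.17 percentage points, ran from -1.77 to 6.97 when each of these 5 libraries was left out, with 6.97 without UTX-deficient library 2. It was 5.30 within 10 kb and -18.06 for a WT concentration of 6 to under 6.5, where 23 floor sites stood beside 442 comparison sites. It kept within its interval under the other 13 alternatives, although its sign was positive in some of them. The cause was not tested. Depth limits all of this, since a site at the floor holds at most 5 reads in UTX-deficient cells. No paired analysis was possible because the deposited group values carry no replicate numbers.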

Other observations

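Outside the WT range, 1990 weaker sites and 3 stronger sites also lay at the floor in UTX-deficient cells. The 3 stronger sites were assigned to Fkbp5, a glucocorticoid-induced chaperone gene, Skil, a repressor of SMAD signalling, and Zfp36l1. The Fkbp5 site held 142, 131 and 90 reads in the WT libraries against 2, 2 and 0 in the UTX-deficient libraries. At Skil the reads were 143, 120 and 74 against 1, 2 and 0, and at Zfp36l1 131, 112 and 76 against 1, 2 and 0. That Zfp36l1 site lay 289 bp upstream of the start and 2404 bp from the floor site in the range. Zfp36l1 thus had 2 sites at the floor, with 319 and 145 WT reads in all against 3 and 2.

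Other genes with a pair of floor sites included Axin2, a feedback inhibitor of WNT signalling, with 57, 38 and 44 WT reads against 5, 0 and 0 at one site and 43, 39 and 29 against 2, 1 and 0 at the other. Hnrnpf, a gene of an RNA-binding splicing regulator, had 51, 47 and 29 against 2, 1 and 0 at its start and 35, 33 and 32 against 1, 2 and 0 farther upstream. At Fbxo47, an F-box gene, the 2 sites held 65, 55 and 40 against 1, 2 and 0 and 55, 58 and 28 against 2, 2 and 0.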
